A study of Mus musculus with 8 samples.

Results

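Fatty acid and peroxisome enzymes of the embryonic mouse kidney are described here through 9 genes: Acsl1, Acsm2, Acox3, Acaa1b, Ehhadh, Hao2, Cpt2, Acadm and Cat. They were chosen by name, without a threshold on measured values. They are 9 of the 24151 gene symbols measured, and 8 of them passed the filter for testing (at least 1 TPM, a length-corrected share of the transcripts in a library, in at least 2 libraries). The study gave chlorpyrifos (CPF), an organophosphate insecticide, to pregnant ICR mice that had been mated at 8 weeks of age, at 5 mg per kg under the skin on each of gestation days 7.5 to 11.5. The other dams received DMSO, the solvent in which CPF was dissolved, in equal volume on the same days. Kidneys of their embryos were taken at 4 stages (E12.5, then E14.5, then E16.5, and lastly E18.5), so that dosing had ended before the first harvest. There are 8 libraries, 4 CPF and 4 DMSO, with 1 of each agent per stage; the sources used here do not give how many embryos or litters a library holds.

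Fatty acids are trapped in the cell by esterification to coenzyme A and are then shortened by beta-oxidation, medium and long chains in mitochondria, and very long, branched and dicarboxylic chains in peroxisomes. Mitochondrial entry of long chains runs through the carnitine shuttle, while peroxisomal oxidases pass electrons directly to oxygen and make hydrogen peroxide, which catalase removes. In the kidney the proximal tubule is rich in both organelles and takes most of its energy from fatty acids, and this segment matures late in gestation and after birth.

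The 8 libraries held between 11714 and 12870 genes at 1 TPM or more. Genes with several RefSeq transcripts were mostly listed low in these files, so their low values are only listed values. Their median of mean TPM was 0.142, against 3.64 for genes with 1 transcript, and 22.7% of them averaged 1 TPM or more. Some passed the filter and are counted in the gene lists below. Hadhb and Etfb, mitochondrial genes with 3 and 2 transcripts that every cell uses, were listed at 0 in all 8 libraries. Among the 9 enzymes this concerns Acsm2, which has 3 transcripts, and the other 8 have 1 each. The RNAs Rpph1 and Rmrp took 19.3 to 21.8% of the TPM in CPF libraries and 19.6 to 41.8% in DMSO libraries, with the highest share at E18.5. Since TPM are shares of a fixed total, differences are also given after each library was rescaled to its coding transcripts alone. This moved the median CPF minus DMSO difference of all tested genes at E18.5 to 0.14 on the log2 scale, against 0.53 as deposited. In bulk kidney, fewer cells of a type and less RNA per cell cannot be told apart.

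The promoter windows of 5 of the enzymes are shown because their levels behave differently: Hao2, Acaa1b and Acadm were higher at E18.5 than at E12.5, Ehhadh had the widest difference between agents at E18.5, and Cat had the highest level at E12.5. Each window runs from 250 bases before to 50 bases after a RefSeq start on GRCm38.p6, 5′ to 3′ on the gene's strand, which is the minus strand for all 5. The Hao2 window lies at chr3:98893181-98893480, from a start inside the annotated gene (chr3:98874519-98895376), and the Acaa1b window lies at chr9:119157044-119157343, the Acadm window at chr3:153944594-153944893, the Ehhadh window at chr16:21787785-21788084 and the Cat window at chr2:103485104-103485403. Capitals mark matches on either strand to AGGTCA (the nuclear receptor half-site), GTTAAT (part of the HNF1 motif), GGGCGG (the GC box) and CCAAT (the CCAAT box, which reads ATTGG on the opposite strand).
Hao2: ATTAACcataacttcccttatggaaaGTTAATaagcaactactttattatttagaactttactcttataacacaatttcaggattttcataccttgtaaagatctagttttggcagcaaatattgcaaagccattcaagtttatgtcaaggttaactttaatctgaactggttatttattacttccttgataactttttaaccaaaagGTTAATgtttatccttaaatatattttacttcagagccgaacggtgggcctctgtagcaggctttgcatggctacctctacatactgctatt
Acaa1b: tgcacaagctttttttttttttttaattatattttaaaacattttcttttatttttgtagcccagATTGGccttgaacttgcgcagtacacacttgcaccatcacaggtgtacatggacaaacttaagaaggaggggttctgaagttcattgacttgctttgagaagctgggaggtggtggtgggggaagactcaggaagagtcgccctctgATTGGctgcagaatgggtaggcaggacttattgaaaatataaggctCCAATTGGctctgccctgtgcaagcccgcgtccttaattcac
Acadm: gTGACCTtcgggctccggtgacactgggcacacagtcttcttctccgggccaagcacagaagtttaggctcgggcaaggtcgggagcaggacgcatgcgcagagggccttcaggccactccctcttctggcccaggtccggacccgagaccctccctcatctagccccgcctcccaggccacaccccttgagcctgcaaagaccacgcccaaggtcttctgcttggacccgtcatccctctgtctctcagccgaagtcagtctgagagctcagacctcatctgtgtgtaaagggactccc
Ehhadh: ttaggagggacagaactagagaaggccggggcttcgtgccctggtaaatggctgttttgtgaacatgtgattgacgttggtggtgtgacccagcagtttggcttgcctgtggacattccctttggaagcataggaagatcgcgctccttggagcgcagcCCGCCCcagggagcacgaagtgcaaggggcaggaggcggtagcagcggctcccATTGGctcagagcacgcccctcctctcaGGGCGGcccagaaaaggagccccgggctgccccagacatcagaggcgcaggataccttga
Cat: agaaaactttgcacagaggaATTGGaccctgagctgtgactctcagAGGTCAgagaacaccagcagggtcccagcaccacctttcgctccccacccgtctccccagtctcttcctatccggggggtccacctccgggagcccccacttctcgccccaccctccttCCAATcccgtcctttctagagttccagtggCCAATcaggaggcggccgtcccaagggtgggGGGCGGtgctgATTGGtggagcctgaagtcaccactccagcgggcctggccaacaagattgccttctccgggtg

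The Hao2 window held 3 matches to GTTAAT, no GC box and 32.3% G and C. Among 32851 RefSeq windows of this length, 7.1% held GTTAAT, and the median G and C content was 52.7%. The Acaa1b window held 4 matches to CCAAT, of which the last pair overlap, and the Cat window also held 4, against 37.4% of all windows with at least 1. The Ehhadh window held 2 GC boxes and 1 CCAAT. The Acadm window held AGGTCA once, near its distal end, and Cat held it once, against 16.3% of all windows; the direct repeat of AGGTCA with 1 base between the copies, the form that peroxisome proliferator-activated receptors bind, was in none of the 11 windows of the 9 genes and in 0.0396% of all. Of the windows not printed, Cpt2 had 3 GC boxes, Acox3 had 5, and the 2 Acsl1 windows had 7 GC boxes and 2 CCAAT. Such letters are descriptions of the window and not evidence of binding.

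**Figure D1:**
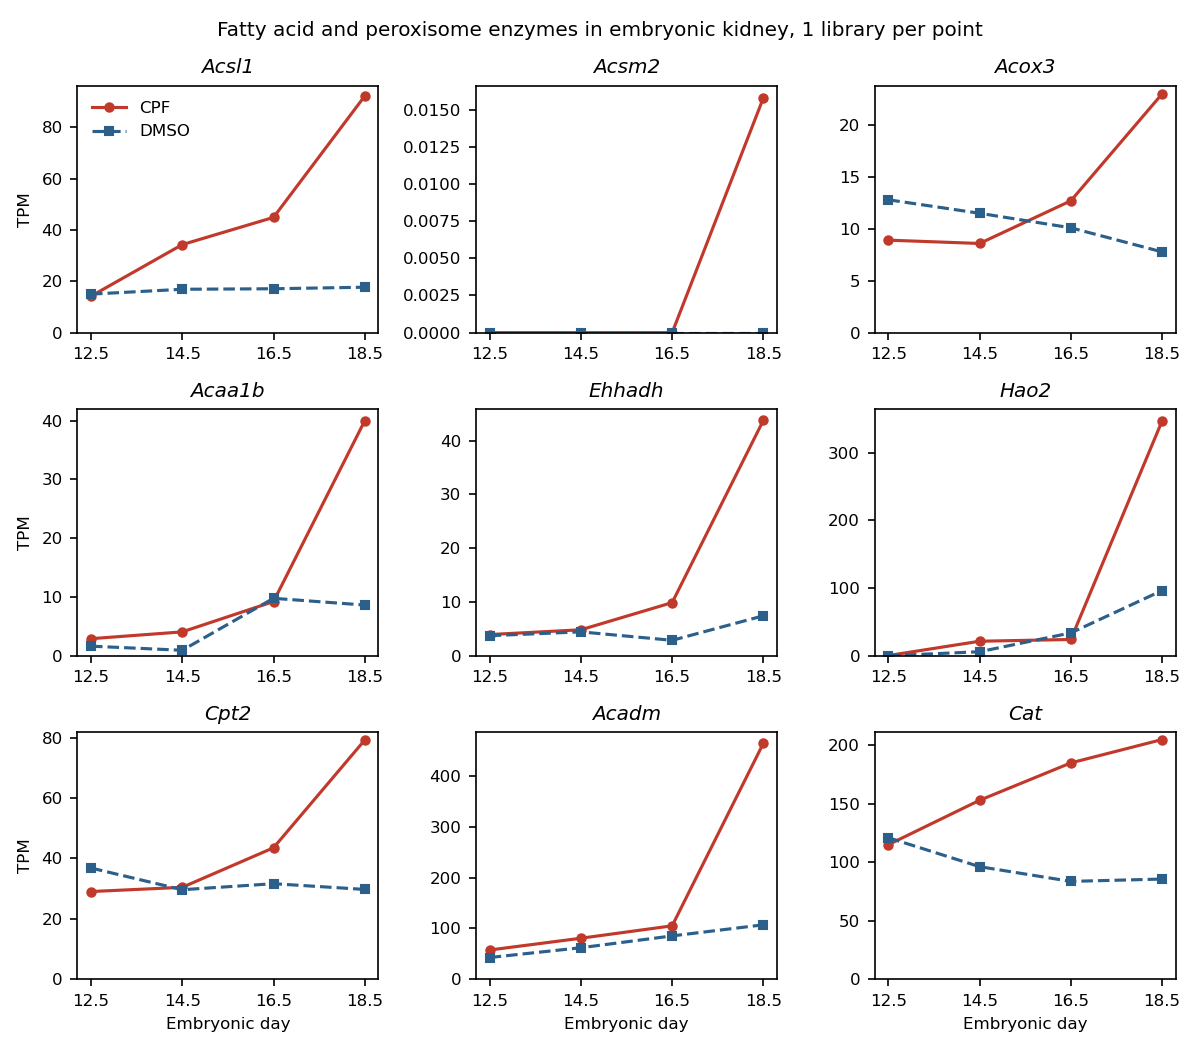
TPM (y axis, linear from 0, scaled per gene) of each of the 9 enzymes against embryonic day (x axis) in CPF (circles, solid line) and DMSO (squares, dashed line), with 1 library per point and so no error bar. The CPF E18.5 library is the highest of the 8 for each of the 8 tested enzymes, as it is for 29.7% of tested genes. Acsm2 does not pass 0.0158 TPM, less than the worth of 1 read.

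Acsl1, the long-chain acyl-CoA synthetase that commits fatty acids to oxidation or storage, read 14.2, 34.3, 44.9 and 92.2 TPM from E12.5 to E18.5 in CPF kidneys, against 15.0, 16.9, 17.1 and 17.7 TPM in DMSO kidneys. The agents were close at E12.5, and from E14.5 on each CPF library was above every DMSO library. The E18.5 level was 5.21 times that of DMSO. After scaling to coding transcripts the DMSO course was less flat, ending at 33.2, with CPF ending at 125. Acsm2, a medium-chain acyl-CoA synthetase of kidney and liver mitochondria, was listed at 0 in 7 libraries and at 0.0158 TPM in CPF E18.5, which is less than the worth of 1 read. It has close relatives in the same family, and no fold is given for it.

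Acox3, the oxidase that starts peroxisomal breakdown of branched chains, read 8.91, 8.59, 12.7 and 23.0 TPM from E12.5 to E18.5 in CPF kidneys, against 12.8, 11.5, 10.1 and 7.78 TPM in DMSO kidneys. Its courses crossed: CPF was lower than DMSO at E12.5 and E14.5 and higher at E16.5 and E18.5. Ehhadh, the bifunctional enzyme for the middle steps of the peroxisomal cycle, read 3.96, 4.85, 9.90 and 43.8 TPM in CPF kidneys, against 3.75, 4.46, 2.89 and 7.45 TPM in DMSO kidneys. Its libraries were alike at the first 2 stages, and at E18.5 CPF was 5.88 times DMSO, the widest ratio among the enzymes at that stage.

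Acaa1b, the peroxisomal thiolase that releases acetyl-CoA at the end of the cycle, read 2.92, 4.08, 9.24 and 40.0 TPM in CPF kidneys, against 1.65, 0.95, 9.79 and 8.64 TPM in DMSO kidneys. CPF was above DMSO at E12.5, E14.5 and E18.5, and the pair at E16.5 was level. Its low values rest on few reads, about 16.2 in DMSO E14.5 by the estimated worth of a read. Acaa1b has a closely similar copy, Acaa1a, with which it may share reads: Acaa1a read 28.6, 22.0, 42.5 and 59.5 TPM in CPF kidneys, against 48.6, 36.4, 48.8 and 33.0 TPM in DMSO kidneys. Acaa1a was thus the more abundant of the copies in every library, lower in CPF at the first 3 stages and higher at E18.5.

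Hao2, a peroxisomal 2-hydroxy acid oxidase with high levels in rodent kidney, read 0.446, 21.6, 24.2 and 347 TPM in CPF kidneys, against 0.158, 6.10, 33.9 and 96.5 TPM in DMSO kidneys. It was near the limit of detection at E12.5 in both agents, with about 8.97 and 3.98 reads in the CPF and DMSO libraries, and it was among the most abundant of the enzymes at E18.5 in both. CPF was higher at E12.5, E14.5 and E18.5 and lower at E16.5. Cat, catalase, which breaks down hydrogen peroxide, read 115, 153, 185 and 205 TPM in CPF kidneys, against 121, 96.2, 83.6 and 85.6 TPM in DMSO kidneys. It was abundant at every stage, started level in the 2 agents, and then parted, with CPF libraries higher at each later stage. In DMSO its level at E18.5 was 0.706 times that at E12.5, but after scaling to coding transcripts the values were 161 and 162, so the lower DMSO level depends on the scaling.

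Cpt2, the inner-membrane enzyme that hands long-chain fatty acids from carnitine back to coenzyme A, read 29.0, 30.4, 43.5 and 79.2 TPM in CPF kidneys, against 36.8, 29.6, 31.6 and 29.7 TPM in DMSO kidneys. CPF was lower at E12.5, level at E14.5 and higher afterwards. Acadm, medium-chain acyl-CoA dehydrogenase, the first step of the mitochondrial cycle for medium chains, read 57.3, 80.5, 105 and 465 TPM in CPF kidneys, against 42.5, 61.8, 85.1 and 107 TPM in DMSO kidneys. CPF was higher at every stage, by 1.23 to 1.35 times up to E16.5 and by 4.35 times at E18.5. It was the only tested enzyme besides Ehhadh with CPF above DMSO at each of the 4 stages.

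**Figure D2:**
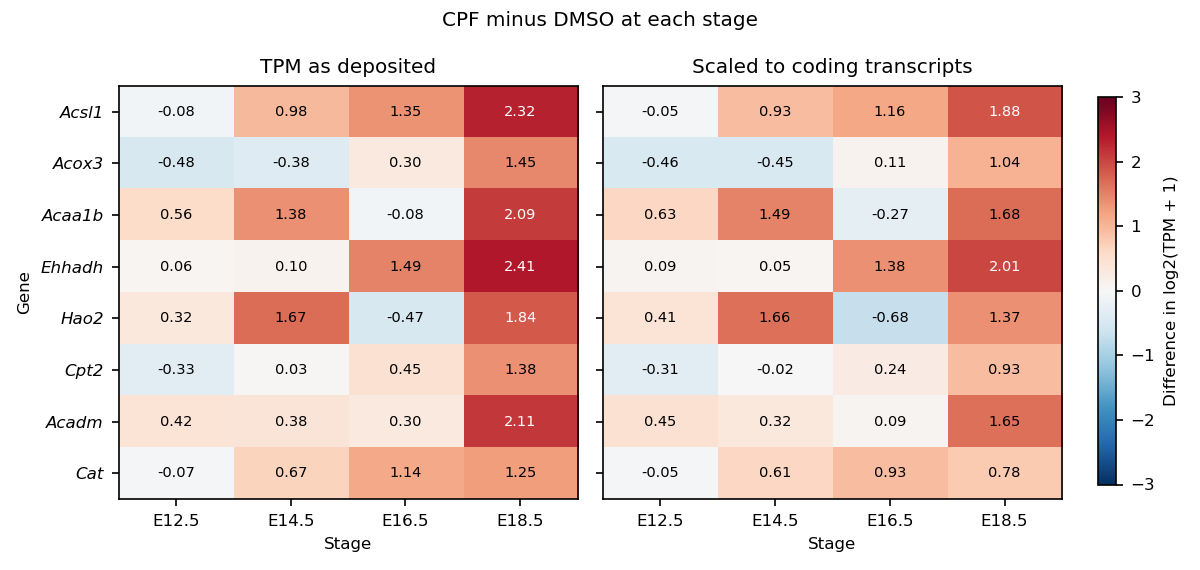
CPF minus DMSO difference in log2(TPM + 1) for the 8 tested enzymes (rows) at each stage (columns), from TPM as deposited (left) and after scaling to coding transcripts (right); red is higher in CPF, and each cell compares 1 library with 1 library. The E18.5 column is positive for all 8 in both panels, from 1.25 (Cat) to 2.41 (Ehhadh) as deposited and from 0.78 (Cat) to 2.01 (Ehhadh) after scaling.

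At E18.5 all 8 tested enzymes were more than 2-fold higher in CPF than in DMSO on the log2(TPM + 1) scale, where 20.4% of all tested genes were. The differences were 2.41 for Ehhadh, 2.32 for Acsl1, 2.11 for Acadm, 2.09 for Acaa1b, 1.84 for Hao2, 1.45 for Acox3, 1.38 for Cpt2 and 1.25 for Cat. After scaling to coding transcripts 6 of the 8 passed 2-fold, against 10.1% of genes, and Cpt2 (0.93) and Cat (0.78) did not. The median over the enzymes was 1.96 as deposited and 1.51 after scaling, against 0.53 and 0.14 over all genes. With 1 library per agent at a stage these differences carry no test.

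Earlier stages showed fewer such differences. At E16.5, 3 of the 8 were more than 2-fold higher in CPF (Ehhadh, Acsl1 and Cat), against 7.44% of genes, and at E14.5, 2 were (Hao2 and Acaa1b), against 6.18%. Acsl1 was just short of 2-fold at E14.5, at 0.98, and Cat passed it at E16.5, at 1.14, but not after scaling to coding transcripts (0.93). At E12.5 none was, against 6.04%, and 4 of the 8 differences lay above 0. None was more than 2-fold lower in CPF at any stage, where 2.50, 2.16, 3.20 and 2.02% of genes were from E12.5 to E18.5. The medians over the enzymes were -0.01, 0.52 and 0.37 at E12.5, E14.5 and E16.5, against -0.12, 0.03 and 0.13 over all genes.

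Averaged over the 4 stage pairs, each of the 8 enzymes was estimated higher in CPF than in DMSO, as were 72.6% of all tested genes, and none passed the test. In the limma fit with stage as a term, 0 of 8 had an adjusted p under 0.05 (Benjamini-Hochberg over 13677 genes), where 21 genes, 0.154% of those tested, were called higher. The estimates closest to a call were Acsl1 at 1.14 ± 0.34 (SE, n = 4 stage pairs, adjusted p = 0.244), Cat at 0.74 ± 0.24 (adjusted p = 0.268) and Acaa1b at 0.99 ± 0.36 (adjusted p = 0.369). Unadjusted p were under 0.05 for 6 of the 8, against 9.55% of genes; Cpt2, at 0.38 ± 0.28, and Acox3, at 0.22 ± 0.34, were the others. The median estimate over the enzymes was 0.82, against 0.15 over all genes. The 95% interval of Acox3 ran from -0.51 to 0.96, and without the E18.5 pair its estimate was -0.19.

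Without the E12.5 pair Acsl1 was called, at 1.55 with an adjusted p of 0.0216, while its adjusted p ran from 0.0216 to 1 over all alternatives. The spread behind these p-values is how the difference varies from stage to stage; no value here measures the spread between embryos or litters.

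**Figure D3:**
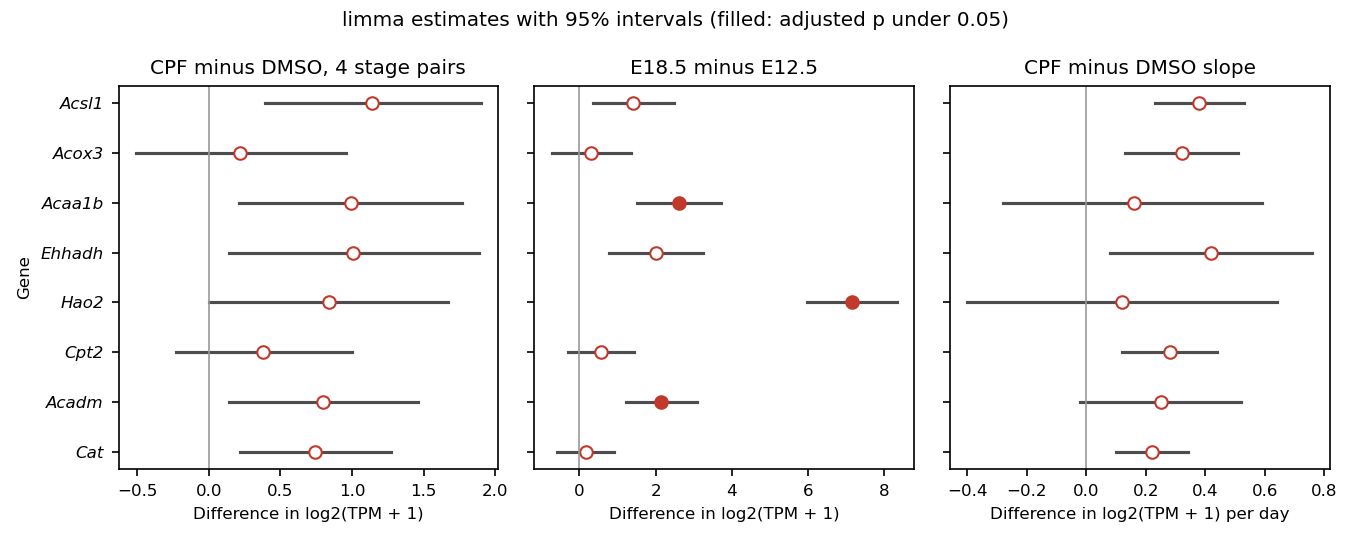
limma estimates for the 8 tested enzymes (rows) with 95% intervals as bars: CPF minus DMSO over 4 stage pairs (left), E18.5 minus E12.5 (middle), both in log2(TPM + 1), and the CPF minus DMSO slope in log2(TPM + 1) per embryonic day (right). Filled points, Hao2, Acaa1b and Acadm in the middle panel, have an adjusted p under 0.05; no point in the other panels does.

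Between E18.5 and E12.5, with agent in the same fit, 3 of the 8 enzymes were called higher at E18.5, where 639 genes, 4.67% of those tested, were and 510 were called lower. Hao2 was higher by 7.15 ± 0.53 on the log2(TPM + 1) scale (SE, limma adjusted p = 4.96e-05), Acaa1b by 2.62 ± 0.51 (adjusted p = 0.00759) and Acadm by 2.15 ± 0.42 (adjusted p = 0.0111). Hao2 was 778 times as high at E18.5 as at E12.5 in CPF and 609 times in DMSO, ratios that rest on the few reads at E12.5. Ehhadh, at 2.00 ± 0.56 (adjusted p = 0.0512), lay just outside the threshold, and Acsl1, at 1.42 ± 0.49 (adjusted p = 0.0987), was not called either. Cpt2 at 0.56 ± 0.40, Acox3 at 0.31 ± 0.48 and Cat at 0.16 ± 0.34 had adjusted p of 0.415, 0.732 and 0.809.

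The E18.5 minus E12.5 difference in log2(TPM + 1) was larger in CPF than in DMSO for each of the 8 enzymes, as it was for 77.5% of tested genes (63.0% after scaling to coding transcripts). As a plain ratio it was larger in DMSO for Hao2 after that scaling (469 at E18.5 and 0.605 at E12.5 in CPF, and 181 and 0.211 in DMSO). Acadm was 8.12 times as high at E18.5 as at E12.5 in CPF and 2.51 times in DMSO, and Ehhadh was 11.1 times as high in CPF and 1.99 times in DMSO. Cat, Acox3 and Cpt2 were 1.78, 2.58 and 2.73 times as high in CPF, and 0.706, 0.608 and 0.808 times in DMSO, where Cpt2 was higher at E18.5 after scaling to coding transcripts (55.8, against 49.0 at E12.5). Whether a gene's stage difference differs between the agents is asked by the slope test. After scaling to coding transcripts, which gave 1007 genes called higher and 404 lower, 5 of the 8 were called, with Ehhadh (2.28, adjusted p = 0.035) and Acsl1 (1.67, adjusted p = 0.0468) added. The same 5 were called without the E14.5 pair, and without any filter on low values only Hao2 was. All genes called higher at E18.5 in these settings numbered 848 and 271.

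The change per embryonic day did not pass the test of a difference between agents for any enzyme. In limma 0 of 8 were called, as were 0 genes (0%) in all, while 5 of 8 and 26.4% of genes (3615) had an unadjusted p under 0.05. The slope of Acsl1 was 0.411 on the log2 scale per day in CPF and 0.034 in DMSO, a difference of 0.38 ± 0.07 (SE, 4 residual degrees of freedom, adjusted p = 0.132). The slope differences of Acox3 (0.32 ± 0.08), Cpt2 (0.28 ± 0.07) and Cat (0.22 ± 0.05) had the same adjusted p, and Ehhadh was at 0.42 ± 0.15 (adjusted p = 0.141). For these 4, own slopes in CPF were 0.217, 0.238, 0.137 and 0.521 per day, against -0.106, -0.040, -0.085 and 0.10 in DMSO. Acadm had a difference of 0.25 ± 0.12 (adjusted p = 0.216), and Acaa1b (0.16 ± 0.19) and Hao2 (0.12 ± 0.22) had adjusted p of 0.629 and 0.76. Without the E18.5 pair the slope differences of Acaa1b, Hao2 and Acadm were -0.16, -0.20 and -0.03.

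**Figure D4:**
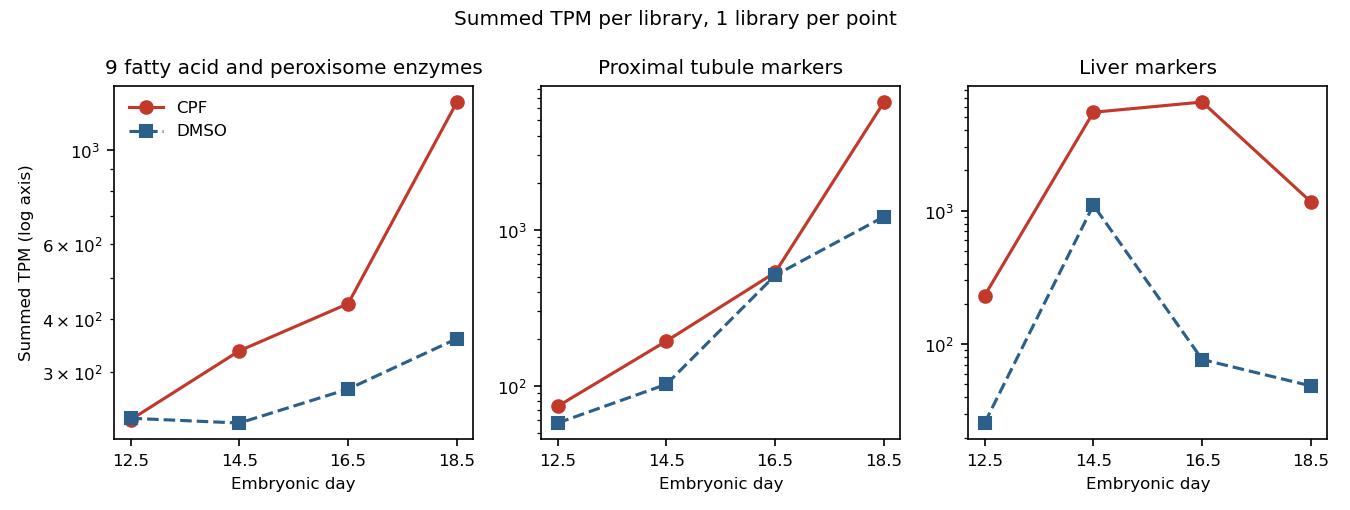
Summed TPM (log y axis) of the 9 enzymes (left), the proximal tubule markers (middle) and the liver markers (right) in each library against embryonic day, CPF with circles and a solid line and DMSO with squares and a dashed line, 1 library per point. The enzymes and the tubule markers have their highest sum in CPF E18.5 (1295 and 6556 TPM), while the liver markers have theirs in CPF E16.5 (6493 TPM).

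The order of the levels was not the same at all stages. In TPM, which is per transcript length, Cat was the most abundant of the 9 at E12.5 and E14.5 in both agents, and Acadm was at E18.5 in both, with Hao2 in second place. Stage by stage, the sum of the 9 was 232, 337, 435 and 1295 TPM in CPF libraries, against 234, 228, 274 and 360 TPM in DMSO libraries. The 3 enzymes of the peroxisomal cycle, Acox3, Acaa1b and Ehhadh, summed to 15.8, 17.5, 31.8 and 107 TPM in CPF, against 18.2, 16.9, 22.8 and 23.9 TPM in DMSO. The mitochondrial enzymes Cpt2 and Acadm summed to 86.3, 111, 148 and 544 TPM in CPF, against 79.4, 91.4, 117 and 137 TPM in DMSO. Within the mitochondrial pair the ratio of Acadm to Cpt2 was 5.87 at E18.5 and 1.97 at E12.5 in CPF, and 3.59 at E18.5 and 1.16 at E12.5 in DMSO.

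In CPF, 7 of the 8 tested enzymes were higher at every later stage than at the one before, a course that 13.7% of tested genes had, and Acox3 was the exception. In DMSO, 3 were (Acsl1, Hao2 and Acadm), against 4.33% of genes, a share that was 9.64% after scaling to coding transcripts. CPF E18.5 was the highest of the 8 libraries for all 8 enzymes, against 29.7% of genes.

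Genes of the same pathways were also read in lists that exclude the 9. In the E18.5 against E12.5 comparison by limma, where 4.67% of all tested genes were called higher, 4 of 11 tested acyl-CoA synthetases were called higher (Slc27a2, Acsm1, Acss1 and Acsm5), 0 of 5 carnitine shuttle genes, 1 of 15 genes of mitochondrial beta-oxidation (Acaa2) and 5 of 21 of peroxisomal beta-oxidation (Acot4, Acot3, Eci3, Phyh and Hacl1). Also called were 2 of 7 peroxisomal oxidases and peroxide removers (Pipox and Prdx5), 0 of 14 peroxisome assembly genes, 2 of 4 genes of fatty acid uptake and binding (Fabp3 and Fabp4) and 1 of 5 nuclear regulators (Hnf4a). None of these lists had a gene called lower at E18.5, and none had a gene called in either direction between CPF and DMSO over stages or in slope. At E18.5, 7 of 11 synthetases, 3 of 5 shuttle genes, 6 of 15 mitochondrial and 13 of 21 peroxisomal beta-oxidation genes, 2 of 7 oxidases and peroxide removers, 4 of 14 assembly genes, 3 of 4 uptake and binding genes and 4 of 5 nuclear regulators were more than 2-fold higher in CPF, where 20.4% of all tested genes were. These counts are from TPM as deposited. In the same order, the median differences were 1.11, 1.42, 0.95, 1.20, 0.91, 0.66, 1.51 and 1.36 as deposited, against 0.53 over all tested genes. After scaling to coding transcripts they were 0.65, 0.97, 0.49, 0.82, 0.54, 0.22, 1.17 and 0.98, against 0.14.

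Slc27a2, a very long-chain fatty acid transporter and acyl-CoA synthetase, was 6.10 ± 0.53 higher at E18.5 than at E12.5 on the log2 scale (SE, limma adjusted p = 0.0001). It read 1.45, 14.2, 26.1 and 339 TPM in CPF kidneys, against 0.562, 6.35, 23.3 and 51.9 TPM in DMSO kidneys. The agents were close at E16.5 and far apart at E18.5. Acsm1, a medium-chain synthetase, read 0.0499, 0.232, 0.761 and 79.1 TPM in CPF kidneys, against 0, 0.389, 2.40 and 10.9 TPM in DMSO kidneys. Acss1, the mitochondrial acetyl-CoA synthetase, read 5.60, 12.0, 27.0 and 62.0 TPM in CPF kidneys, against 4.94, 4.70, 6.43 and 12.8 TPM in DMSO kidneys. As with Acsl1, the CPF library of Acss1 was the higher of each pair from E14.5 on.

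Cpt1a, the outer-membrane enzyme that controls entry into the shuttle of Cpt2, read 22.8, 23.4, 53.0 and 141 TPM in CPF kidneys, against 19.5, 27.6, 33.9 and 31.5 TPM in DMSO kidneys. Crot, the peroxisomal carnitine octanoyltransferase, stayed between 89.2 and 116 TPM in CPF and between 67.8 and 91.0 TPM in DMSO. Acaa2, the mitochondrial thiolase, read 90.3, 161, 225 and 254 TPM in CPF kidneys, against 93.2, 112, 127 and 148 TPM in DMSO kidneys. As with Cat, its CPF library was already the higher at E14.5.

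In the peroxisome, the acyl-CoA thioesterases Acot4 and Acot3 were 37.6 and 22.8 TPM in CPF E18.5, against 6.92 and 3.56 TPM in DMSO E18.5. Eci3, an enoyl-CoA isomerase, was 27.5 TPM in CPF E18.5, against 2.95 TPM in DMSO E18.5, and was higher in CPF at all 4 stages. Pipox, which oxidises pipecolic acid and sarcosine, was 53.0 TPM in CPF E18.5 and 10.2 TPM in DMSO E18.5. Prdx5, a peroxiredoxin that like Cat removes peroxides, was 498 TPM in CPF E18.5 and 288 TPM in DMSO E18.5, and the agents were alike at the earlier stages. The assembly genes Pex13 and Pex14, needed for import of peroxisomal proteins, were 42.9 and 53.8 TPM in CPF E18.5, against 35.4 and 33.1 TPM in DMSO E18.5, and after scaling to coding transcripts Pex13 was lower in CPF, by -0.19.

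The fatty acid binding proteins Fabp3 and Fabp4 were 144 and 675 TPM in CPF E18.5, against 39.5 and 457 TPM in DMSO E18.5. Both were higher in CPF at E12.5, at 9.67 and 98.9 TPM, against 5.44 and 17.9 TPM in DMSO. They were also higher at E14.5, at 14 and 224 TPM, against 6.03 and 174 TPM. Both were lower in CPF at E16.5, at 22.5 and 296 TPM, against 27.6 and 421 TPM in DMSO. The E18.5 difference of Fabp4 was 0.56 on the log2 scale as deposited and 0.09 after scaling to coding transcripts. Hnf4a, a nuclear receptor that is required for proximal tubule identity in mouse kidney, read 0.742, 13.2, 55.9 and 182 TPM in CPF kidneys, against 0.0370, 5.88, 28.5 and 28.0 TPM in DMSO kidneys. Ppara, the nuclear receptor that drives many of these enzymes in liver, was listed at 0.0661 TPM or less, but it has 2 transcripts, so this is no measure of its level.

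**Figure D5:**
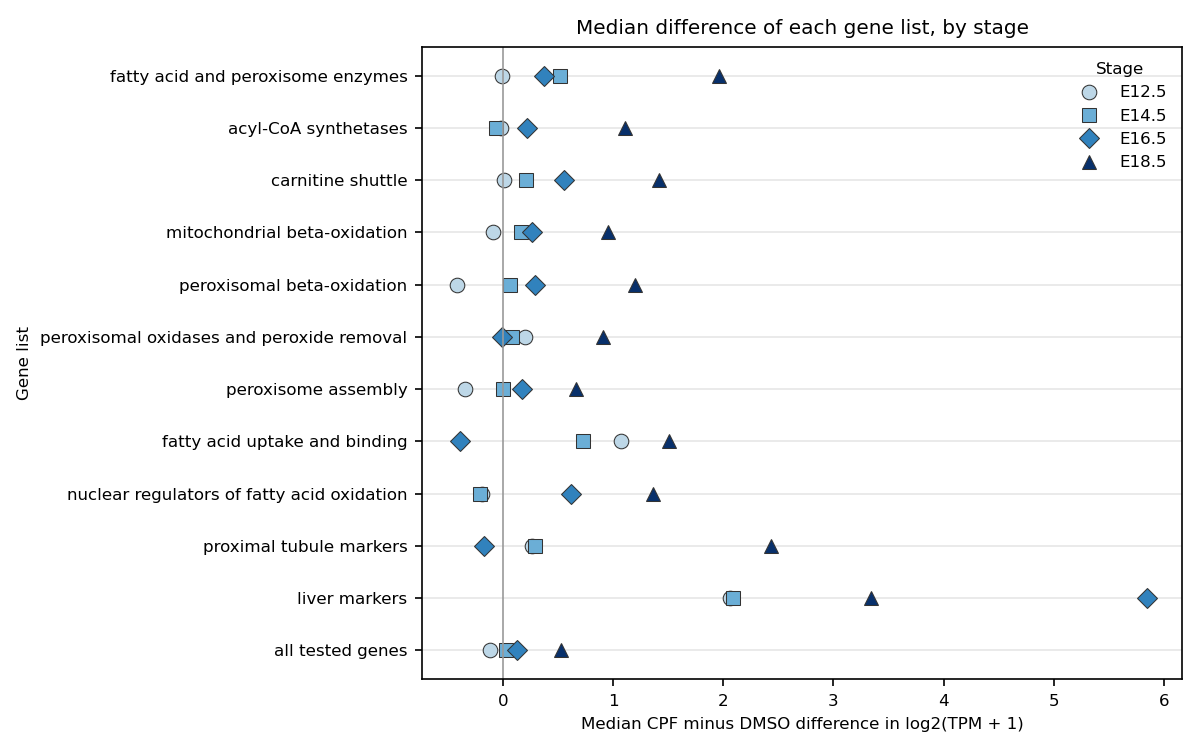
Median CPF minus DMSO difference in log2(TPM + 1) (x axis) of the 8 tested enzymes, 8 lists of related genes, 2 lists of cell type markers and all tested genes (rows), with 1 symbol per stage, from 1 library per agent. At E18.5 the enzymes stand at 1.96 and the proximal tubule markers at 2.43, while the liver markers peak at E16.5, at 5.85.

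Markers of the proximal tubule were higher in CPF at E18.5, as the enzymes were. Of 18 markers 15 were tested, all 15 were more than 2-fold higher in CPF at E18.5 (20.4% of all tested genes), and 14 were called higher at E18.5 than at E12.5 (4.67%). Their sum was 73.7, 193, 531 and 6556 TPM from E12.5 to E18.5 in CPF kidneys, against 57.6, 102, 509 and 1208 TPM in DMSO kidneys, and Slc22a8, which has 3 transcripts, was listed at 0 in every library. At E16.5 their median difference was -0.17 (-0.38 after scaling to coding transcripts), while that of the enzymes was 0.37 (0.18 after scaling). On either scale 6 of 8 enzymes were above 0, as were 61.8% of all tested genes (45.1% after scaling), with Hao2 (-0.47) and Acaa1b (-0.08) below. The markers' part in the enzymes' differences was not tested.

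Markers of liver, a tissue rich in the same enzymes, were also higher in CPF libraries, without a test at each stage. Of 16 markers 14 were tested, and 11, 13, 14 and 13 were more than 2-fold higher in CPF from E12.5 to E18.5. The shares of all tested genes were 6.04, 6.18, 7.44 and 20.4%. In the limma fit over the 4 stage pairs 1 of the 14 (Ambp) was called higher in CPF, where 0.154% of tested genes were. Their sum was 231, 5445, 6493 and 1161 TPM in CPF kidneys, against 25.7, 1098, 76.8 and 48.7 TPM in DMSO kidneys, and Ahsg, which has 4 transcripts, was listed at 0 in every library. The highest liver sum was in CPF E16.5, where the median difference of the enzymes was 0.37. Hao1, the glycolate oxidase of liver peroxisomes (chosen after its values were seen), read 0.0499, 0.325, 0.761 and 0.207 TPM in CPF kidneys, against 0, 0, 0.0999 and 0.18 TPM in DMSO kidneys. Its highest value was thus also in CPF E16.5, and all its values were low. Adrenal cortex markers summed to 87.6, 766, 767 and 173 TPM in CPF kidneys, against 54.6, 104, 118 and 72.9 TPM in DMSO kidneys, and all 9 were above 0 in at least 1 library. Of these, 8 were tested and 1 (Akr1b7, limma adjusted p = 0.0222) was called higher in CPF over the 4 stage pairs. Exocrine pancreas markers summed to 1584 TPM in CPF E16.5 and to at most 47.1 TPM elsewhere. Fat markers summed to at most 2.20 TPM in CPF and 3.36 TPM in DMSO, but only 1 of 8 was tested, and the zeros of Plin1 and Plin5, which have 2 transcripts each, are only listed values. What these tissues contributed was not tested.

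Leaving out the E14.5 and E16.5 pairs, whose CPF libraries had the highest liver and adrenal sums (a choice made after seeing the data), left 0 of 8 enzymes called between agents and 3 of 8 between E18.5 and E12.5. Of all 13677 tested genes, 34 were called between agents and 777 between E18.5 and E12.5, of which 529 were higher at E18.5. This fit rests on the E12.5 and E18.5 pairs alone. Liver sums were higher in CPF in these pairs too (231 against 25.7 TPM at E12.5, and 1161 against 48.7 TPM at E18.5). The fit is therefore no test of what these tissues contributed. In that fit the differences between CPF and DMSO on the log2 scale ran from 0.49 for Acox3, 0.53 for Cpt2 and 0.59 for Cat to 1.33 for Acaa1b, each with an adjusted p of 1 in limma, and Cat (0.74 over 4 pairs) and Acsl1 (1.12, against 1.14) were the ones that became smaller. Nephron progenitor markers went the other way: their median difference was -1.17 at E18.5 (-1.65 after scaling to coding transcripts). As deposited, 7 of 9 were more than 2-fold lower in CPF, where 2.02% of all tested genes were.

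The genes whose course over the 8 libraries was most like the mean standardized course of the enzymes, out of 8130 candidates averaging 10 TPM or more, were Hsd17b11 (Pearson r = 0.991), Dlat (0.990), Fh1 (0.990), Phyh (0.988), Pde8a (0.988) and Ctsd (0.987). The libraries share stage and agent, so these are descriptions. Phyh, the peroxisomal hydroxylase of phytanic acid, read 29.7, 45.7, 68.4 and 175 TPM in CPF kidneys, against 34.8, 33.4, 41.7 and 54.4 TPM in DMSO kidneys. Dlat and Fh1, a subunit of pyruvate dehydrogenase and the fumarase of the citric acid cycle, were 114 and 241 TPM in CPF E18.5, against 49.1 and 156 TPM in DMSO E18.5. Among the enzymes themselves the correlation with this mean course ran from 0.75 for Cat to 0.96 for Ehhadh.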

How the data were processed

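RNA of 8 embryonic mouse kidney libraries had been sequenced from 2 μg of input each, per the labels' protocols. The submitters' processing notes name Trimmomatic, STAR and mm10, without versions; the step that assigned reads to transcripts is not stated in the sources used here. The authors deposited TPM for each of 32862 RefSeq transcripts, summing to 1000000 per library. Transcripts were summed per symbol after 52 symbols listed as dates or numbers were restored.

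TPM keep no depth. From the steps among low values, 1 read in 1 kb was worth an estimated 0.0618 to 0.107 TPM (82.2 to 85.6% of low values lay within 0.1 of a whole read), which limits the precision of low genes. Read numbers are estimates from these steps.

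limma 3.58.1 in R 4.3.3, with a variance trend and robust moderation, was fitted to log2(TPM + 1), a scale that understates changes of low genes. Genes with at least 1 TPM in at least 2 libraries were tested (13677), with Benjamini-Hochberg adjustment over all of them and calls at an adjusted p under 0.05. One fit had agent and stage (3 residual degrees of freedom), and another had agent, day and their product (4). Single stages have 1 library per agent and no test. The fit of agent and stage was also run on simulated data with independent noise and, for changed genes, the same CPF shift at every stage. That setting does not cover agent differences that change with stage, as seen here. Alternatives were quantile normalization, coding-transcript scaling, pseudocounts of 0.1 and 5, other filters, the highest transcript, no moderation, other covariates and leaving out stage pairs. Promoter windows are RefSeq, GRCm38.p6; all 9 genes matched.

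The enzymes, the lists and the tests were chosen with earlier results of these data known. Of each related list described, the text gives values for up to 3 genes called between E18.5 and E12.5, or else the 2 highest by mean. Acsm5, Phyh and Hacl1 are further called genes, named with the list counts. The text also gives values for 6 genes of like course. Acaa1a, Hsd17b4 and Ppara, like Uox and Hao1, were added outside these rules. The result of 1 further list of related genes is not reported here.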

Additional observations from a re-analysis of the deposited data

Results flagged for a closer look

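Acox3, the peroxisomal oxidase of branched chains, was the enzyme whose CPF minus DMSO difference lay below 0 at both earlier stages and above 0 at both later stages. The differences in log2(TPM + 1) were -0.48 (E12.5), -0.38 (E14.5), 0.30 (E16.5) and 1.45 (E18.5). The mean of the later pair minus that of the earlier pair was 1.30. That split itself was not tested, and the slope over embryonic day measures the same pattern and is no separate support for it. The same order of signs was found in 19.2% of all tested genes, and after scaling to coding transcripts in Cpt2 as well and in 11.3% of genes. Differences of both signs among the 4 stages occurred in 6 of the 8 enzymes (Acsl1, Acox3, Acaa1b, Hao2, Cpt2 and Cat) and in 82.3% of all tested genes.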

How the results depend on the processing

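The E18.5 minus E12.5 estimate of an enzyme cannot move when the E14.5 pair, the E16.5 pair or both are left out. The filter, the moderation and, with 1 transcript per gene, the highest transcript cannot move it either. Quantile normalization, coding-transcript scaling, other pseudocounts and a linear term for embryonic day can. Under these, each of the 8 tested enzymes kept its direction. The count of 22 genes called between CPF and DMSO became 0 with quantile normalization, with no filter, with no replicate block (the stage term dropped) and with a linear term for embryonic day, 1 with coding-transcript scaling, 2 with a pseudocount of 5, 4 without trend and robust moderation, 83 with a pseudocount of 0.1 and 92 with at least 5 TPM in at least 4 libraries. Leaving out 1 stage pair gave 25 to 221 genes (98 without E12.5, 221 without E14.5, 25 without E16.5 and 51 without E18.5), and leaving out both the E14.5 and E16.5 pairs, chosen after seeing the data, gave 34. Enzymes called in that comparison numbered 0 in the main setting and 0 to 1 with 1 pair left out. Between E18.5 and E12.5, 1149 genes were called, against 687 with a pseudocount of 5 and 394 with no filter. The count of 3 enzymes called became 5 with coding-transcript scaling, 1 with no filter and 3 to 5 with 1 pair left out, 5 without the E14.5 pair. Ehhadh was not tested under the filter of 5 TPM. No enzyme was over 2-fold higher in CPF at E12.5, but 1 was with a pseudocount of 0.1.

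Signs turned for the following, and the cause was not tested. With 1 pair left out, the agent difference ran from -0.187 to 0.455 for Acox3, -0.350 to 0.881 for Acsm1, -0.106 to 0.393 for Pex14 and -0.002 to 0.275 for Prdx5. The slope difference ran from -0.160 to 0.243 for Acaa1b, -0.198 to 0.222 for Hao2, -0.031 to 0.434 for Acadm, -0.254 to 0.730 for Acsm1, -0.117 to 0.043 for Crot, -0.010 to 0.488 for Eci3, -0.253 to 0.187 for Fabp3, -0.727 to 0.050 for Fabp4, -0.099 to 0.028 for Pex13 and -0.123 to 0.409 for Slc27a2. The lower end came without the E18.5 pair in each. For Pex13 and Pex14 the agent difference was -0.056 and -0.044 with quantile normalization and -0.055 and -0.083 with coding-transcript scaling, and for Pex14 it was -0.065 without both pairs. The stage difference of Pex13 was 0.037 and 0.084 under the same scalings, and the slope of Fabp3 was -0.002 with quantile normalization.

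The E18.5 against E12.5 difference could not be fitted without the E12.5 or the E18.5 pair, and the slope was not run without both the E14.5 and E16.5 pairs. Each stage has 1 library per agent, so no result here measures the spread between litters. Depth limits Hao2 at E12.5 and Acaa1b at E14.5, which rest on few reads. The zeros of Acsm2, which has 3 transcripts, are only listed values.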

Other observations

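Uox, the peroxisomal urate oxidase, read 0.275, 0.512, 2.12 and 5.86 TPM from E12.5 to E18.5 in CPF kidneys, against 0, 0.429, 0.183 and 0.496 TPM in DMSO kidneys. It was chosen after its values were seen. Its difference over the 4 stage pairs was 1.01 ± 0.36 on the log2 scale (SE, limma adjusted p = 0.363). Hsd17b4, the other bifunctional enzyme of the peroxisomal cycle beside Ehhadh, was 142 TPM in CPF E18.5 and 70.8 TPM in DMSO E18.5, and its E18.5 minus E12.5 difference was 0.29 ± 0.34 (adjusted p = 0.641), against 2.00 ± 0.56 for Ehhadh.

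Markers of other kidney and blood cells were read in the same libraries. Podocyte markers summed to 127, 164, 269 and 654 TPM from E12.5 to E18.5 in CPF kidneys, against 198, 136, 247 and 174 TPM in DMSO kidneys. Of these, 5 of 6 were more than 2-fold higher in CPF at E18.5, where 20.4% of all tested genes were. Ureteric bud and collecting duct markers summed to 176, 227, 160 and 452 TPM in CPF kidneys, against 228, 226, 248 and 242 TPM in DMSO kidneys. Of these, 2 of 6 tested were more than 2-fold higher in CPF at E18.5, against the same 20.4%. Erythroid markers summed to 36829, 17630, 943 and 33.3 TPM in CPF kidneys, against 8058, 4051, 599 and 70.2 TPM in DMSO kidneys. Their part in the enzymes' levels was not tested.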
